A study of Mus musculus with 24 samples.

Results

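The MYC network transcription factors are the basic helix-loop-helix leucine zipper proteins that bind DNA as dimers with MAX or with its relative MLX. The genes followed were the 3 MYC genes (Myc, Mycn and Mycl), the shared partner Max, the antagonists Mxd1, Mxd3, Mxd4, Mxi1 and Mnt, and Mlx, chosen by their mouse symbols. All 10 were found among the 55414 genes of the count table, and all 10 were among the 16029 genes that passed the filter on low counts and were tested. RNA was sequenced from 24 tumours of D4M, a mouse melanoma line, grown in wild-type C57BL/6 mice. Each group had 6 tumours, and every mouse received an antibody by intraperitoneal injection. IgG2a is the control antibody alone, PD-1 an antibody that blocks PD-1, an inhibitory receptor on T cells, BRQ+IgG2a brequinar with the control antibody, and BRQ+PD-1 brequinar with anti-PD-1. Brequinar (BRQ) inhibits dihydroorotate dehydrogenase, an enzyme of pyrimidine synthesis. The sources used here give no dose, no length of treatment and no age of the mice.

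MYC proteins bind DNA only when paired with MAX, and MYC-MAX dimers raise transcription of genes for ribosome assembly, nucleotide synthesis and growth. MXD proteins, MXI1 and MNT compete for MAX, bind the same sites and recruit SIN3 and histone deacetylase complexes that lower transcription. MLX pairs with MLXIP or MLXIPL, which respond to sugar phosphates, and also with some MXD proteins and MNT. MYC mRNA and protein turn over within minutes, so the mRNA level follows transcription and decay closely.

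Library totals ran from 19106205 to 34282319 counts, and levels are given as CPM, which scales each count to the library total, here adjusted by TMM factors. Skeletal muscle RNA set 4 tumours apart, with the muscle actin gene Acta1 above 1000 CPM in IgG2a replicates 2 and 3, PD-1 replicate 6 and BRQ+IgG2a replicate 4. No BRQ+PD-1 tumour was among these, so the calls of Myc and the counts of MYC-activated genes are also given for the other 20. Fold changes of other single genes are not given without the 4. A further tumour, BRQ+IgG2a replicate 5, had the lowest summed level of the mitosis genes, 821 CPM, where the others of its group reached up to 2296 CPM. Of 8 melanocytic genes, 6 did not pass the filter on low counts, and the pigment genes Tyr and Dct had 0 counts in all 24 libraries. The list of neural crest and undifferentiated melanoma held 7 genes, which did not go 1 way. Axl and Nes, which stromal cells also express, stood at medians of 850 and 426 CPM, and Sox9 at 150 CPM. Sox10, Ngfr, S100b and Erbb3 were low, with medians of 0.07, 0.38, 1.09 and 1.85 CPM.

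MYC-MAX and MXD-MAX dimers bind the E-box CACGTG, which reads the same on both strands. RefSeq promoter windows of 300 bases (250 before to 50 after each start, build GRCm38.p6) were searched for it. The motif occurred in 7.15% of all 32851 windows and in 9.41% of the windows of tested genes. Windows were found for 9 of the 10 network genes, all but Myc, and the motif stood in 4 of their 11 windows, those of Max, Mxd4, Mnt and Mlx. These 4 stretches are shown because they place the sequence that the network reads beside the starts of its own genes. The capitals mark the E-box.

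Max, chr12:76962226-76962271, minus strand: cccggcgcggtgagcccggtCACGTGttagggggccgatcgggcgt
Mxd4, chr5:34187904-34187949, minus strand: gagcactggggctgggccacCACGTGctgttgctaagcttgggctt
Mnt, chr11:74830781-74830826, plus strand: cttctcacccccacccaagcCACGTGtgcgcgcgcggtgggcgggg
Mlx, chr11:101087230-101087275, plus strand: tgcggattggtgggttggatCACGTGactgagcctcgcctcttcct

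The E-box began at position -3 from the annotated start in Max, -40 in Mlx, -123 in Mnt and -219 in Mxd4. A match is a description of the sequence only. Binding was not measured.

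Max and Myc were the most abundant genes of the network per length of transcript, and Mycn and Mycl the least. Over the 24 tumours, Max stood at 39.4 ± 3.31 CPM per kilobase of its longest annotated transcript (mean ± SD). Myc followed at 29.1 ± 7.42 and Mxd4 at 25.0 ± 5.16 CPM per kilobase. Mxi1 at 18.3 ± 4.73, Mlx at 16.0 ± 1.95 and Mnt at 14.8 ± 2.15 CPM per kilobase lay within the spread of each other. Mxd3 stood at 9.26 ± 2.43 and Mxd1 at 5.02 ± 0.855 CPM per kilobase. Mycl, at 0.229 ± 0.135, and Mycn, at 0.143 ± 0.0882 CPM per kilobase, were far below the rest and did not differ beyond their spread. The order of the abundant genes depended on the length used. Per kilobase of coding sequence Mxd4 came first and Myc at rank 4, because the Mxd4 transcript is 4627 bases long with 627 bases of coding sequence. The place of Mycl and Mycn at the bottom was the same by either length.

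**Figure D1:**
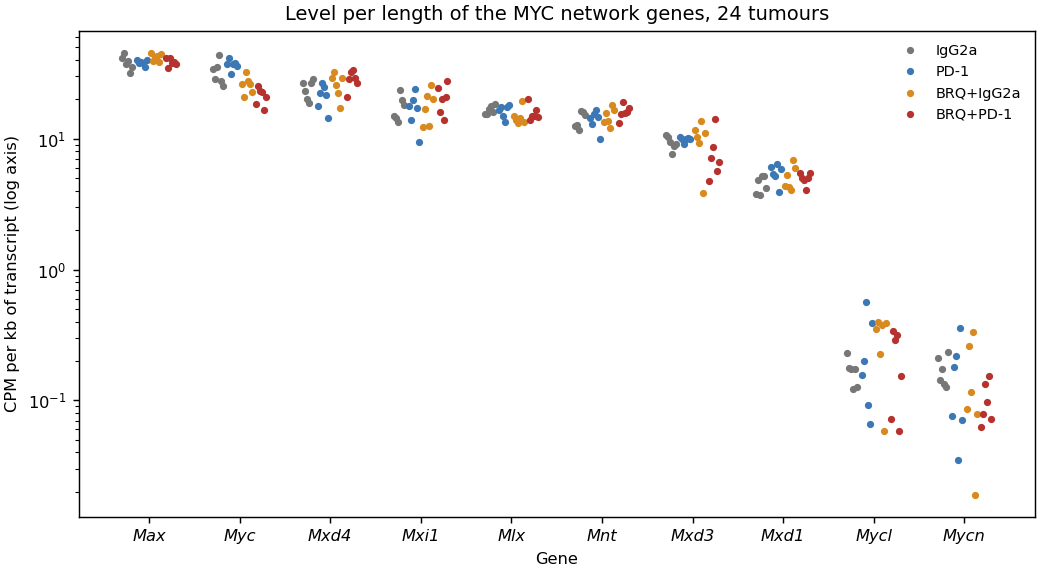
Level of each network gene in CPM per kilobase of its longest annotated transcript, on a log axis, with 1 point for each of the 24 tumours coloured by treatment group. Max and Myc lie highest, at means of 39.4 and 29.1 CPM per kilobase, and Mycl and Mycn lie below 1 CPM per kilobase in every tumour.

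Myc (ENSMUSG00000022346), the founding member of the family, was lower in brequinar-treated tumours and was the only gene of the network called. In the IgG2a tumours it had 59.5, 64.9, 67.5, 79.2, 82.9 and 102 CPM. In the PD-1 tumours it had 72.7, 84.0, 86.7, 87.4, 89.1 and 96.9 CPM. The PD-1 tumours lay inside the IgG2a range, and 5 of 6 were above its mean. The BRQ+IgG2a tumours had 48.4, 53.7, 61.0, 61.1, 64.2 and 76.1 CPM, and the BRQ+PD-1 tumours 39.0, 43.4, 48.6, 53.5, 54.4 and 59.5 CPM. All 12 brequinar-treated tumours lay below the mean of the 12 others, and 7 of the 12 lay below the lowest of the others.

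**Figure D2:**
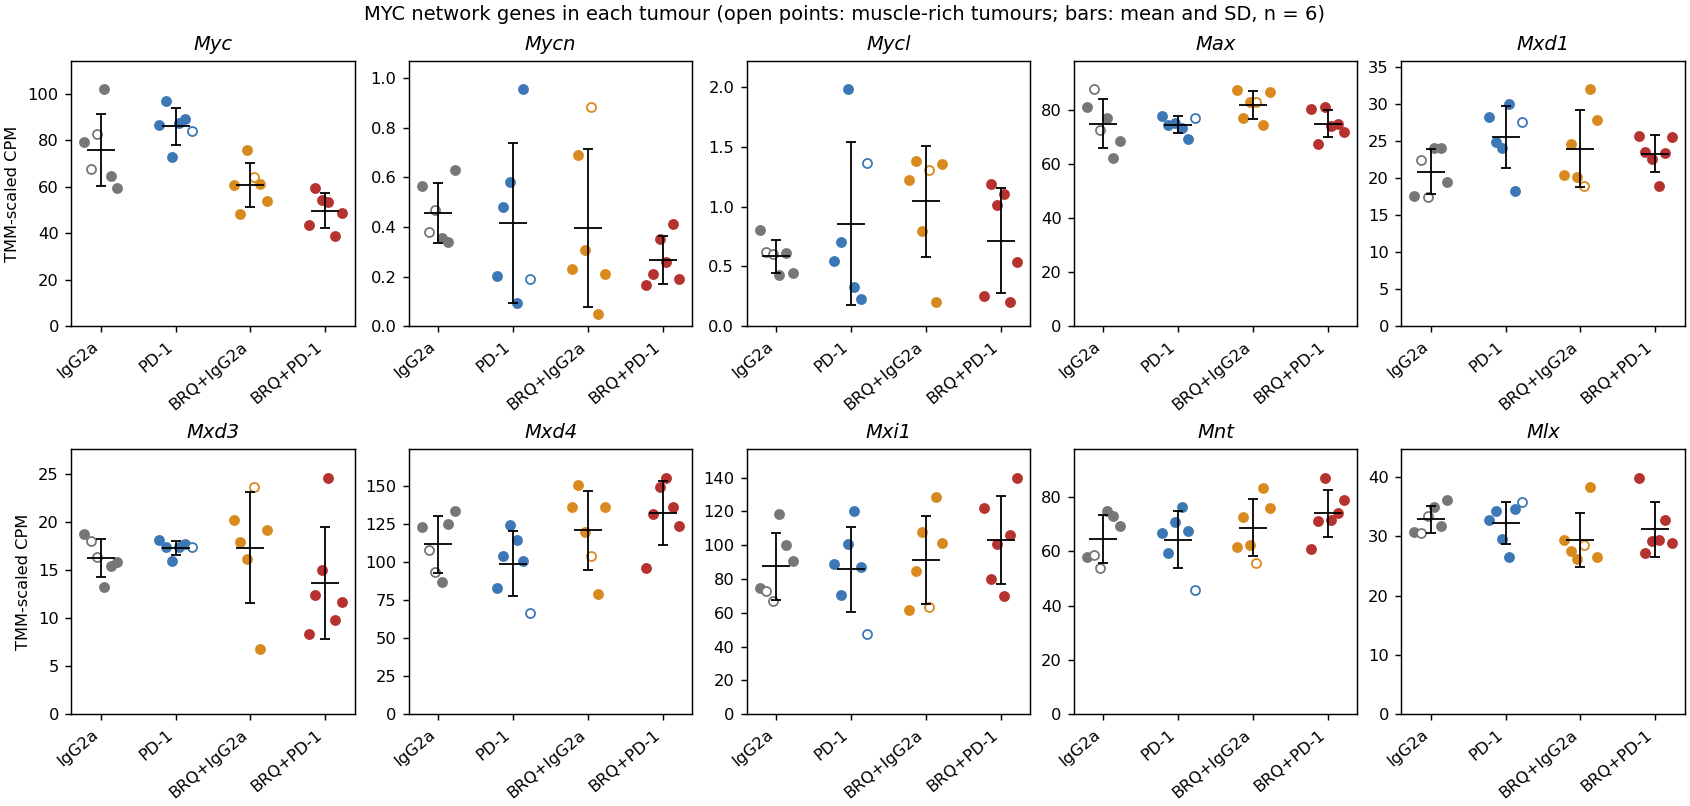
TMM-scaled CPM of the 10 network genes in each of the 24 tumours by treatment group, 1 panel per gene, with bars for the mean and SD (n = 6) and open points for the 4 muscle-rich tumours. Myc means step from 76.0 (IgG2a) and 86.1 (PD-1) to 60.7 (BRQ+IgG2a) and 49.7 CPM (BRQ+PD-1). Of all pairs of groups in the 10 panels only PD-1 and BRQ+PD-1 for Myc do not overlap. The share of all genes tested without such overlap was not counted, so this describes the panels only.

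Averaged over both antibodies, brequinar-treated tumours were compared with the 12 tumours without brequinar. This value is the mean of the brequinar changes with each antibody, so a large change with 1 antibody can carry it. Myc fell by 0.56 ± 0.0885 on the log2 scale (SE; 95% interval -0.74 to -0.37), or by 32.0%, with an edgeR adjusted p of 0.000386 over all genes. By p-value it ranked 77 among the 16029 genes tested. In this comparison 12.5% of all genes tested were called, 1108 higher and 893 lower, and 1 of the 10 network genes. The median log2 fold change of the 10 genes was 0.05, beside 0.01 for all genes. Without the 4 muscle-rich tumours the Myc change was -0.58 ± 0.103, with adjusted p 0.0013.

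Brequinar added to anti-PD-1 gave the widest gap. Myc averaged 49.7 ± 7.61 CPM in BRQ+PD-1 (SD, n = 6) against 86.1 ± 7.9 in PD-1, and the highest BRQ+PD-1 tumour, at 59.5 CPM, lay below the lowest PD-1 tumour, at 72.7 CPM. The log2 fold change was -0.79 ± 0.126, 0.578-fold, with adjusted p 0.00134, where 5.04% of all genes were called. The two-sided exact permutation test of the mean log2 CPM gave p = 0.00216, the smallest it allows for 6 tumours against 6. That test was run for 50 single values, the 10 genes in each of 5 pairwise comparisons, and its p-values are not adjusted. Without the muscle-rich tumours the change was -0.81 ± 0.138.

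Against the control antibody, Myc fell from 76.0 ± 15.5 CPM in IgG2a to 49.7 ± 7.61 CPM in BRQ+PD-1. All 6 BRQ+PD-1 tumours were below the IgG2a mean, and the highest of them was level with the lowest IgG2a tumour at 59.5 CPM. The log2 fold change was -0.61 ± 0.125, with adjusted p 0.00806 beside a called share of 3.91% of all genes and an exact p of 0.00433. Without the muscle-rich tumours it was -0.64 ± 0.146, with adjusted p 0.0225.

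Brequinar with the control antibody gave a Myc difference that did not pass the test. The mean was 60.7 ± 9.48 CPM against 76.0 ± 15.5 in IgG2a, and 5 of 6 tumours were below the IgG2a mean. The log2 fold change was -0.32 ± 0.125 (95% interval -0.58 to -0.07), with adjusted p 0.189 and exact p 0.0541, and 3.46% of all genes but 0 of the 10 network genes were called. Whether the Myc difference with brequinar depended on anti-PD-1 was tested as an interaction. Its log2 value was -0.47 ± 0.177, with adjusted p 0.576 and an unadjusted p of 0.0142, so a difference was not called. The edgeR interaction test called 0% of all genes, although 1222 genes had an unadjusted p under 0.05. DESeq2 called 13 genes and limma voom with sample quality weights 268, with no network gene among the calls of either.

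The remaining pair of comparisons asks what anti-PD-1 changed. Anti-PD-1 alone gave a Myc log2 fold change of 0.18 ± 0.125 against IgG2a, with adjusted p 0.834, where 0.0187% of all genes (3 genes) were called, a count that was 0 in 11 of 12 fits without 1 tumour and 28 by DESeq2. Beside brequinar, anti-PD-1 gave -0.29 ± 0.125, with adjusted p 0.665 and exact p 0.0476. All 6 BRQ+PD-1 tumours were below the BRQ+IgG2a mean, and the groups overlapped. In that comparison edgeR called 0% of all genes, and 1168 genes had an unadjusted p under 0.05. Voom with quality weights called 612 genes, edgeR without BRQ+IgG2a replicate 5 called 65 and DESeq2 called 2, and in none of these was a network gene called. The comparisons share groups, so their values are not independent of each other.

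**Figure D3:**
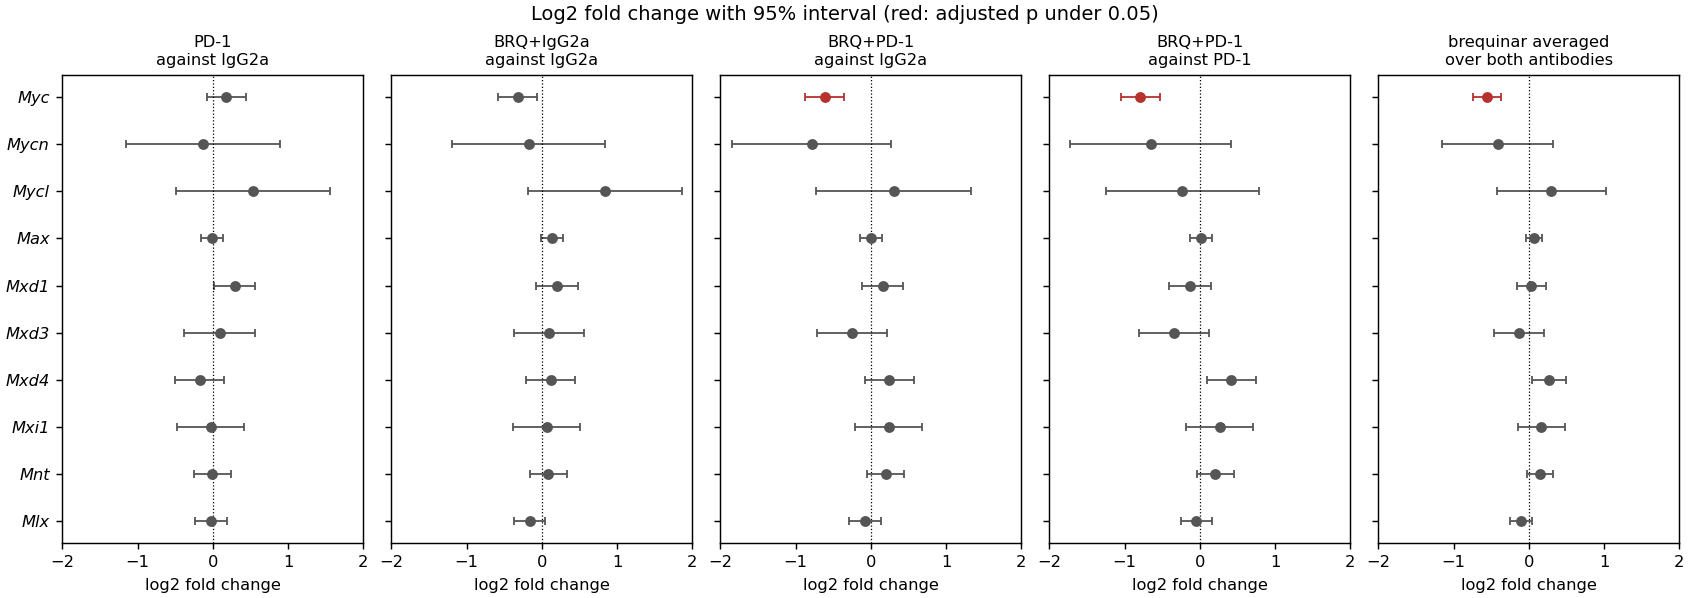
Log2 fold change of each network gene with its 95% interval in 5 comparisons, with red for an adjusted p under 0.05. Myc is the only red point, at -0.61 for BRQ+PD-1 against IgG2a, -0.79 for BRQ+PD-1 against PD-1 and -0.56 for brequinar averaged over both antibodies, and the intervals of Mycn and Mycl are the widest.

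Mycn and Mycl, the MYC genes of neural and epithelial tissues, were near the lower limit of detection. Mycn had 1 to 25 counts per library and Mycl 4 to 41 counts. No tumour exceeded 0.955 CPM of Mycn or 1.98 CPM of Mycl, and all 4 groups overlapped in both. All 6 BRQ+PD-1 tumours were below the IgG2a mean of Mycn, at -0.79 ± 0.512 with adjusted p 0.37 and exact p 0.0173. Averaged over the antibodies the brequinar log2 fold changes were -0.42 ± 0.357 for Mycn and 0.30 ± 0.348 for Mycl, with adjusted p 0.47 and 0.611. The Mycn interval, -1.15 to 0.32, leaves room for a fall as large as that of Myc, which was not detectable at this depth. The Mycl interval, -0.42 to 1.02, leaves room for a rise of that size but not for such a fall.

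Max, the partner that MYC, MXD proteins and MNT share, was the steadiest gene of the network. It ranged from 62.1 to 87.5 CPM over the 24 tumours, a 1.41-fold range, where Myc had a 2.62-fold range. Its group means were 74.7 ± 9.04 CPM for the control antibody, 74.4 ± 3.09 for anti-PD-1, 81.8 ± 5.16 for BRQ+IgG2a and 74.9 ± 5.09 for BRQ+PD-1. The brequinar log2 fold change of Max was 0.07 ± 0.0501, and its 95% interval of -0.03 to 0.17 does not reach the size of the Myc change. Between the brequinar groups, all 6 BRQ+PD-1 tumours were below the BRQ+IgG2a mean of Max, at -0.13 ± 0.0709 with adjusted p 0.671 and exact p 0.0476, and the groups overlapped.

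Mlx, the partner of the sugar-responsive factors, averaged 32.9 ± 2.29 CPM in IgG2a and 32.2 ± 3.54 in PD-1, and with brequinar 29.4 ± 4.5 for BRQ+IgG2a and 31.2 ± 4.61 for BRQ+PD-1. Within BRQ+IgG2a, 5 tumours had 26.1 to 29.4 CPM, all below the lowest IgG2a tumour at 30.5 CPM, and replicate 5 had 38.2 CPM. The log2 fold change against IgG2a was -0.16 ± 0.101, with adjusted p 0.497. Limma voom with sample quality weights, which gives less weight to tumours that stand apart, called it at -0.25 ± 0.0768 with adjusted p 0.0305.

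Mxd4, an antagonist that accompanies cell cycle exit and differentiation, had higher values in BRQ+PD-1 than in PD-1 without passing the test. It ranged from 66.3 to 125 CPM with a median of 102 in PD-1, and from 95.8 to 155 CPM with a median of 134 in BRQ+PD-1. These groups overlapped, with 5 of 6 BRQ+PD-1 tumours above the PD-1 mean. The log2 fold change was 0.42 ± 0.158, with adjusted p 0.124 and exact p 0.0281. Averaged over both antibodies it was 0.27 ± 0.112 (95% interval 0.04 to 0.50), with adjusted p 0.12 and 9 of 12 tumours above the mean of the others. The change of Mxd4 was therefore not called, but voom with quality weights called both values (0.40 and 0.27, adjusted p 0.0336 and 0.0322), and so did edgeR for the averaged value without BRQ+IgG2a replicate 5 (0.31, adjusted p 0.0466).

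Mnt, the antagonist made in both dividing and resting cells, ran from 45.8 to 87.2 CPM, with group means of 64.6 ± 8.83, 64.3 ± 10.6, 68.7 ± 10.5 and 73.9 ± 8.71 CPM in the order IgG2a, PD-1, BRQ+IgG2a and BRQ+PD-1. The brequinar log2 fold change was 0.14 ± 0.084, with adjusted p 0.27. Mxi1, also known as Mxd2, ran from 47.3 to 140 CPM and had a brequinar value of 0.16 ± 0.152, with adjusted p 0.512. Mxd1, which rises as myeloid and epithelial cells mature, had 17.4 to 32.0 CPM and a brequinar value of 0.03 ± 0.0942. In the PD-1 tumours Mxd1 averaged 25.5 ± 4.18 CPM against 20.9 ± 3.08 in IgG2a, which is 0.29 ± 0.133 on the log2 scale (adjusted p 0.73). All 4 groups overlapped for each of these 3 genes.

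Mxd3, the MXD gene that is expressed in S phase of dividing cells, spread more widely among the brequinar tumours than among the others, a difference in spread that was not tested. The PD-1 tumours lay between 15.9 and 18.1 CPM, and the IgG2a tumours between 13.3 and 18.7 CPM. In BRQ+IgG2a the range was 6.75 to 23.7 CPM, and in BRQ+PD-1 it was 8.33 to 24.6 CPM. The brequinar tumours thus held both the lowest and the highest values, and 5 of the 12 were below every tumour without brequinar. The averaged log2 fold change was -0.13 ± 0.16, with adjusted p 0.648. Replicate 5 of BRQ+IgG2a, with the lowest mitosis level, had the lowest Mxd3 level.

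As a description of the balance between activator and antagonists, Myc made up a share of the summed level per length of Myc, Mxd1, Mxd3, Mxd4, Mxi1 and Mnt. With the longest annotated transcript as the length, that share was 31.9 ± 5.4% in IgG2a and 35.5 ± 4.82% in PD-1 (mean ± SD, n = 6). With brequinar it was 26.0 ± 4.12% for BRQ+IgG2a and 21.4 ± 2.77% for BRQ+PD-1. In the BRQ+PD-1 tumours it ran from 17.7 to 26.1%, below the PD-1 range of 28.9 to 42.0%. The size of the share depends on the length used. In IgG2a, Myc and Mxd4 averaged 32.5 and 24.1 CPM per kilobase of longest transcript. Per kilobase of coding sequence they averaged 55.8 and 177.8 CPM, with Mxd4 above Myc. Shares by coding length were not computed, so the percentages hold for transcript length only. These are shares of mRNA, since protein was not measured.

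Genes that MYC is known to activate were lower with brequinar as a group. The list held 40 such genes, and all 40 were tested. Many act in ribosome assembly and nucleolar function, and others in translation, polyamine and nucleotide synthesis, glycolysis, protein folding and further roles. Averaged over both antibodies, 19 fell, 0 rose, and all 40 log2 fold changes were below 0, with a median of -0.23 beside 0.01 for all genes tested. Of all genes tested, 48.8% had a value below 0 and 5.57% were called lower. The list was chosen with earlier results of these data known, so these counts are no independent result. Without the muscle-rich tumours 11 of the 40 fell, with a median of -0.21.

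The 4 with the smallest adjusted p in the averaged comparison act in making ribosomes, as many genes of the list do. Nop56, a core protein of the particles that methylate ribosomal RNA, averaged 77.3 ± 7.23 CPM with brequinar against 103 ± 10.1 without it (SD, n = 12 each). Its log2 fold change was -0.42 ± 0.0576, at an adjusted p of 8.41e-05. Nop2, a ribosomal RNA methyltransferase, fell by 0.57 ± 0.0805 on the log2 scale, from 72.2 ± 14.0 to 48.4 ± 5.32 CPM. Polr1b, a catalytic subunit of RNA polymerase I, fell by 0.35 ± 0.0601, and Ppan, a factor of large subunit assembly, by 0.41 ± 0.0751. All 4 were below the mean of the other group in 12 of 12 brequinar tumours. Genes of other roles were among the 40. Cdk4, the cyclin D kinase, fell by 0.27 ± 0.0636 and Srm, spermidine synthase, by 0.34 ± 0.0915. Odc1, the first enzyme of polyamine synthesis, at -0.02 ± 0.0746, and Ldha, lactate dehydrogenase A, at -0.0048 ± 0.0683, stood nearest to no change.

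**Figure D4:**
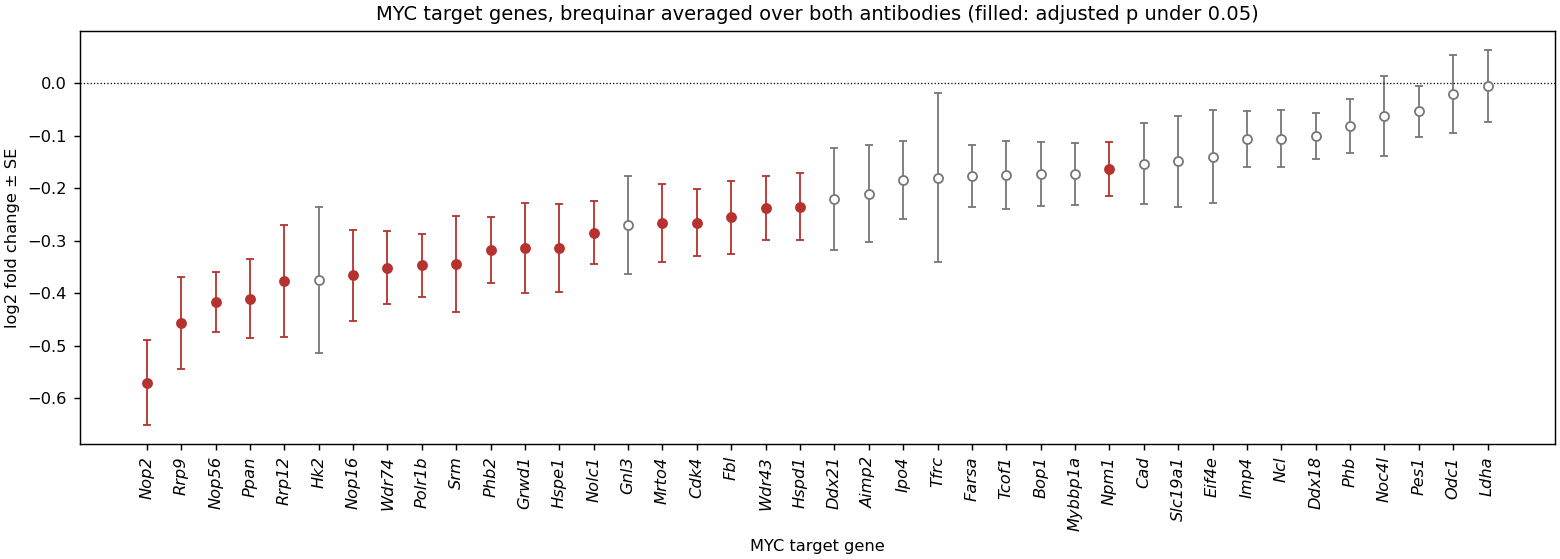
Log2 fold change ± SE of each of the 40 MYC-activated genes for brequinar averaged over both antibodies, in order of size, with filled red points for an adjusted p under 0.05. All 40 points lie below 0, from -0.57 for Nop2 to just under 0 for Ldha, and 19 are filled.

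By single comparison, 17 of the 40 fell in BRQ+PD-1 against PD-1, 13 in BRQ+PD-1 against IgG2a and 1, Nop56, in BRQ+IgG2a against IgG2a. None was called in PD-1 against IgG2a, in BRQ+PD-1 against BRQ+IgG2a or in the interaction. The medians were -0.30, -0.27, -0.13, 0.05, -0.12 and -0.20 in that order. Against PD-1, Nop2 went from 79.2 ± 16.5 to 46.8 ± 3.72 CPM (-0.76 ± 0.114, adjusted p 0.000827), and all 17 called genes were below the PD-1 mean in 6 of 6 tumours. Without the muscle-rich tumours these counts were 10, 5 and 1. The count of 13 became 3, 4 and 8 without IgG2a replicates 1, 3 and 4 in turn, and 7, 6 and 4 without BRQ+PD-1 replicates 1, 2 and 3. The count of 17 became 11, 11 and 8 without PD-1 replicates 1, 2 and 6. The count of 1 became 0 without IgG2a replicate 1 or 3 or BRQ+IgG2a replicate 2 or 6, and 4 without BRQ+IgG2a replicate 5.

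The promoter windows of the MYC-activated genes held the E-box in 12 of 39 windows, 30.8%, and those of the genes that fell with brequinar in 5 of 16, 31.3%. The list was drawn from genes MYC is known to activate, so its share of E-boxes is no independent result. Among the genes that fell, Cdk4 had the motif at 4 places in its window, and the one nearest its start is shown with those of Nop2 and Hspd1, a mitochondrial chaperone. The capitals again mark the E-box.

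Nop2, chr6:125131803-125131848, plus strand: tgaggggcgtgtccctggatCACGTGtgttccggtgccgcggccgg
Cdk4, chr10:127063504-127063549, plus strand: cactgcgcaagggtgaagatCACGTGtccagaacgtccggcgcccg
Hspd1, chr1:55088298-55088343, minus strand: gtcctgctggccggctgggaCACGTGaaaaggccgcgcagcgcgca

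Nop56, Polr1b and Ppan had no CACGTG in their windows, which says only that these letters are not in those 300 bases.

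Genes that work with the network proteins were examined as well. Of 14 cofactors of MYC and MXD proteins, 5 fell and 1 rose with brequinar averaged over both antibodies, where 12.5% of all genes were called, and the median was -0.06. Ruvbl1 (-0.34 ± 0.0702) and Ruvbl2 (-0.25 ± 0.0563), the ATPases of chromatin complexes that MYC recruits, Wdr5 (-0.18 ± 0.0382), which anchors MYC to chromatin, Sin3b (-0.26 ± 0.0648), the corepressor scaffold bound by MXD proteins, and Kat2a (-0.14 ± 0.0461), a histone acetyltransferase, fell. Ep400 (0.23 ± 0.0744), a chromatin remodeller of the TIP60 complex, rose. The adjusted p-values of these genes ran from 0.00332 for Wdr5 to 0.0499 for Kat2a. In BRQ+PD-1 against PD-1, which draws on the same tumours, Ruvbl1, Ruvbl2, Wdr5, Sin3b and Kat2a were called lower and none higher, where 5.04% of all genes were called.

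Of 12 genes that control MYC protein stability, 2 fell and none rose in the averaged comparison, with a median of -0.11. Of all genes tested, 12.5% were called there and 5.57% were called lower, so this count is near the share of all genes. Set, an inhibitor of the phosphatase PP2A, fell by 0.15 ± 0.0473 on the log2 scale, with adjusted p 0.0391. Fbxw7, the ubiquitin ligase subunit that marks MYC for decay, was at 0.06 ± 0.0502 with adjusted p 0.425. None of 9 genes that MYC is known to repress was called. Their log2 fold changes ran from -2.38 to 0.46 with a median of 0.01, and 2 had an unadjusted edgeR p under 0.05. The 2 most abundant of the 9, Pdgfrb at 0.04 ± 0.108 and Gas1 at 0.02 ± 0.151, stood close to 0. None of the 5 tested targets of the MLX partners was called, among them Txnip at 0.33 ± 0.165 with adjusted p 0.201.

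The other DNA-binding genes of the network are Mga, a MAX partner with an added T-box domain, and Mlxip and Mlxipl, the partners of MLX. Mga ran from 57.3 to 103 CPM and Mlxip from 51.8 to 89.9 CPM, with brequinar log2 fold changes of 0.07 ± 0.0732 and -0.05 ± 0.0735. Mlxipl had 4.51 to 19.1 CPM in the 4 muscle-rich tumours and at most 0.534 CPM in the others, so its values by group followed the muscle RNA. None of the 3 was called in any comparison.

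Markers of some other cell types also differed with brequinar in the averaged comparison, where 12.5% of all genes were called. Of 12 T cell genes, 8 rose, with a median of 1.26, and Cd4 went from 4.3 ± 1.93 to 9.95 ± 3.94 CPM. Summed T cell levels ran from 14.4 to 59.2 CPM in IgG2a and 26.7 to 78.8 in PD-1. With brequinar they ran from 29.3 to 185 CPM for BRQ+IgG2a and from 25.5 to 111 CPM for BRQ+PD-1. Of 7 dendritic cell genes 3 rose, with a median of 0.57, namely Itgax, Xcr1 and Zbtb46. Of 9 macrophage genes 2 rose, Adgre1 and Cd68, and 1 fell, Mertk, with a median of 0.26. No tested gene of B and plasma cells, neutrophils, fibroblasts, endothelial cells or skeletal muscle was called in that comparison. The medians of these lists were 0.34, -0.47, 0.06, 0.07 and -2.83 in that order. Of 18 S phase genes, Mcm2 (-0.41 ± 0.11) and Cdt1 (-0.21 ± 0.0652) fell, where 5.57% of all genes were called lower, with a list median of -0.14. Of 16 mitosis genes none was called, with a median of -0.16. Mitf, the melanocyte lineage factor, rose by 0.66 ± 0.199, and Lgals7, a galectin of stratified epithelium, went from 56.0 ± 28.3 to 21.6 ± 8.09 CPM. Lgals7 stands for no cell type here. Of the 8 keratinocyte genes only 3 passed the filter on low counts, of which 1 was called lower and 1 had a log2 fold change above 0. The part of cell composition and of cell division in the Myc values was not tested. In bulk tumour RNA, fewer cells of a type and less RNA per cell cannot be told apart.

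How the network genes varied between tumours of the same group was examined over the 20 tumours that were not muscle-rich, with group means subtracted. Each gene was correlated with the mean log2 CPM of 6 lists, giving 60 relations, each with a permutation test within groups and Benjamini-Hochberg adjustment over the 60. Of these, 10 passed by Pearson's r, and 6 of the 10 also by Spearman's rho. With all 24 tumours 21 passed by Pearson's r.

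Mxi1 was lower in tumours with more S phase RNA. Pearson's r was -0.80 and rho -0.76 (permutation p 0.00017 and 0.00054, adjusted p 0.0102 and 0.0162), and r was -0.76 without the 2 tumours farthest from the median S phase level. Its r with the mitosis genes was -0.69 (adjusted p 0.0424 for r and 0.024 for rho). With the macrophage genes r was -0.67 (adjusted p 0.0464), but rho did not pass (0.0588), and r was -0.51 without the 2 farthest. Mycl passed by both measures with S phase (r 0.69, adjusted p 0.0424 and 0.0476) and by r alone with mitosis (r 0.68, adjusted p 0.0464 and 0.0588). Without the 2 farthest tumours these were 0.57 and 0.43. Mycl was near the lower limit of detection, with 4 to 41 counts per library. For Mxd3, r with S phase was 0.80, which passed by r alone (adjusted p 0.0464 and 0.0588), and r with mitosis was 0.82, which passed by neither (0.0582 and 0.0901). Both were 0.62 without the 2 farthest tumours. Mxd3 was higher where macrophage genes (r 0.79, adjusted p 0.0102) and T cell genes (r 0.81, adjusted p 0.0102) were higher, and Mxd1 was lower where macrophage genes were higher (r -0.73, adjusted p 0.0102), all 3 by both measures. The relation of Mlx to T cell genes, r -0.71 with adjusted p 0.0462 (0.0946 for rho), rests on the 2 farthest tumours, without which r was -0.37.

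Myc followed the level of its activated genes, but not past the threshold. Pearson's r was 0.60 and rho 0.57 (permutation p 0.0186 and 0.0261, adjusted p 0.0621 and 0.0946), and r was 0.53 without the 2 farthest tumours. With all 24 tumours r was 0.51, with adjusted p 0.0397. Its r with S phase was 0.09, with mitosis 0.18 and with T cell genes 0.21. None of these 3 passed the threshold, and r between Myc and the other 9 network genes lay between -0.32 and 0.21.

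**Figure D5:**
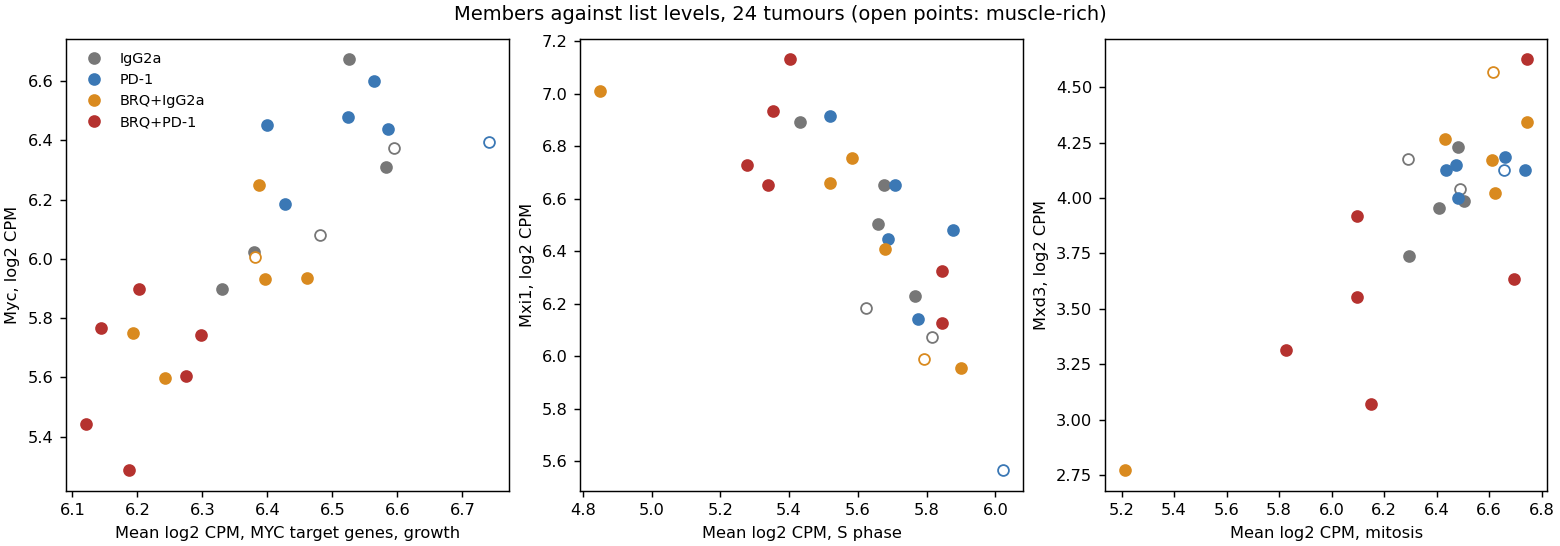
Log2 CPM of Myc against the mean log2 CPM of the 40 MYC-activated genes (left), of Mxi1 against the S phase genes (centre) and of Mxd3 against the mitosis genes (right), with 1 point per tumour coloured by group and open points for the 4 muscle-rich tumours. With group means subtracted, r over the 20 other tumours was 0.60, -0.80 and 0.82, of which only the second passed after adjustment, and the lowest point of the right panel is BRQ+IgG2a replicate 5.

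The network genes differed in how closely any other gene tracked them across the same 20 tumours. Of 12481 genes searched, those nearest to Mxi1 were Bnip3 (r 0.96), Bnip3l (0.94) and Ndrg1 (0.92). The nearest to Mxd3 were Selenoh (0.95), Cdkn2c (0.94) and Efhd2 (0.94), and the nearest to Mxd4 were Cbx6 (0.95), Kazald1 (0.93) and Mapk8ip1 (0.93). Mlx lay nearest to Bcl6b (0.92), Elmo2 (0.91) and Cd300lb (0.90), and Mycl to Fan1 (0.88), St14 (0.82) and Panx1 (0.82). Myc had no neighbour so near, with Il17ra (0.79), Pde3a (0.78) and Steap1 (0.77) first. Those of Max were Ube2cbp (0.84), Snapc2 (0.81) and Htatip2 (0.81), and those of Mxd1 were Cdkn2aip (0.82), Gtf2ird1 (0.82) and Fam214a (0.81). Mnt lay nearest to Naa80, Pitpnm1 and Tmcc2 (all 0.80), and Mycn to Fnta (0.80), Tmem69 (0.77) and Ttc4 (0.77). These are the highest of many values over tumours that share libraries and depth, and they carry no test. Those of Mycn and Mycl rest on 1 to 41 counts per library.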

How the data were processed

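The authors deposited whole-number counts per Ensembl gene with 1 column per tumour, not normalized, and all results come from these counts. The submitters' processing notes name HISAT2 2.2.1, StringTie 2.2.1, Trim Galore 0.6.7, FastQC 0.11.8 and MultiQC 1.11, and the build GRCm39. Which program counted the reads, with which annotation and strand setting, is not given in the sources used here, so reads of overlapping antisense genes may be included. The deposited FPKM and TPM tables were not used.

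Counts were tested with edgeR 4.0.16 in R 4.3.3 (TMM, filterByExpr by group, robust quasi-likelihood F test, group as the only term over 24 libraries, 20 residual degrees of freedom), and a gene was called at a Benjamini-Hochberg adjusted p under 0.05 over the 16029 genes tested. The verbs rose and fell for genes mean called. The SE is the size of the log2 fold change over the square root of F. Exact and correlation tests used log2 CPM with a prior count of 2. Alternatives used DESeq2 1.42.0 and limma 3.58.1. Symbols and lengths came from GENCODE M21, an older build, and promoter windows from RefSeq GRCm38.p6. The test was checked on simulated counts.

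The labels call the tumours of a group biological replicates, and the edgeR p-values judge differences between group means against the spread within groups. For the 60 same-group library pairs, chi-square over its degrees of freedom, which is 1 for sampling noise alone, was 9.92 to 235, and none was treated as a duplicate. The genes and lists were chosen with earlier results of these data known. Named genes are the 10 network genes, up to 4 called genes per list by adjusted p, the 2 most abundant of a list without a call, and the 3 nearest genes by correlation. Others were named after their values were seen: Cdk4, Srm, Odc1, Ldha, Hspd1, Kat2a, Ep400, Fbxw7, Txnip, Mitf, Lgals7, Tyr, Dct, Axl, Nes, Sox9, Sox10, Ngfr, S100b, Erbb3 and the other network genes. Of the genes this rule names, 1 is not reported here.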

Additional observations from a re-analysis of the deposited data

Results flagged for a closer look

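Of 44 groups of 6 tumours examined, 2 held a tumour whose gap to the nearest other tumour exceeded Dixon's critical value of 0.625 of the group's range. Chance flags about 1 in 20 such groups. Mxd3 in PD-1 replicate 3 was 15.9 CPM, with the nearest of the other PD-1 tumours at 17.4 CPM, a gap of 0.666 of the range. Mlx in BRQ+IgG2a replicate 5 was 38.2 CPM, with the nearest of the others at 29.4 CPM, a gap of 0.728 of the range. This is the tumour with the lowest mitosis level and the lowest Mxd3 level.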

How the results depend on the processing

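Myc kept its direction and its side of the threshold in every fit of the 7 comparisons. Called averaged values ran from -0.58 to -0.51 over 8 alternatives (highest adjusted p 0.0013) and from -0.60 to -0.51 leaving out 1 tumour (0.00101). Against PD-1 the Myc change ran from -0.81 to -0.78 and from -0.85 to -0.74. Against IgG2a it ran from -0.64 to -0.55 (highest adjusted p 0.033) and from -0.67 to -0.52 (0.022).

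Under limma voom with quality weights the number of network genes called became 1 in BRQ+IgG2a against IgG2a (Mlx), 2 in BRQ+PD-1 against PD-1 (Myc and Mxd4) and 3 averaged (Myc, Mxd4 and Mlx). Leaving out 1 tumour gave 1 to 2 averaged, 2 being without BRQ+IgG2a replicate 5. The cause was not tested. Of 1517 other fits of the 9 other genes, 1512 left the call as it was, 5 made one and 0 reversed one. The sign differed in 58, none of them called.

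The MYC-activated genes that fell numbered 11 to 28 averaged, 9 to 23 against PD-1 and 3 to 19 against IgG2a over the alternatives, and 18 to 26, 8 to 20 and 3 to 16 leaving out 1 tumour. For brequinar with the control antibody the count was 0 to 7. All genes called ran from 1379 to 3763 averaged, 360 to 2181 against PD-1, 285 to 1553 against IgG2a and 337 to 2100 for BRQ+IgG2a over the alternatives, and from 0 to 28 for PD-1, 0 to 612 between the brequinar groups and 0 to 268 for the interaction. Leaving out 1 tumour, the last 3 ran from 0 to 2, 0 to 65 and 0 to 1.

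The replicate numbers did not pair the tumours: over 36 same-numbered pairs the correlation of deviations ran from -0.66 to 0.47, 12 were over 0.1, and 1 of 24 libraries lay closest to its own number. With the replicate block Myc was -0.56 averaged (adjusted p 0.000972), -0.80 against PD-1 and -0.60 against IgG2a, and 17, 9 and 3 activated genes fell. Mycn and Mycl had only 1 to 41 counts per library and spread widely between tumours, so changes in them could have been missed.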
